A study of Mus musculus with 12 samples.

Results

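The Syk-coupled C-type lectin receptors examined here were Clec7a (encoding Dectin-1), Clec4n (Dectin-2), Clec4e (Mincle), Clec4d (MCL) and Clec5a (MDL-1). The 5 genes were taken as a named list and not by a cut on their measured values. Earlier results of these data were known when the members and the other gene lists were chosen. Counts of called genes set beside the shares of all genes are therefore descriptive. All 5 were among the 54232 genes of the count table, and all 5 were among the 16281 genes with enough counts to test. Bone marrow derived macrophages (BMDMs) came from C57BL/6 WT mice, 6 to 8 weeks old by the methods of the study. Cultured for 5 days, they were then kept for 24 h either in tumor-conditioned medium (TCM) or not, and either with 500 nM R788 (fostamatinib) or without it. R788 is a prodrug whose product blocks Syk, a tyrosine kinase. TCM came from NB9464, a murine neuroblastoma line with MYCN amplification, or from NBT3L, a murine line without it. Each of 6 groups had 2 libraries. Cells with neither TCM nor R788 are called NS and those with the inhibitor alone R788. The other 4 groups were NB9464 TCM and NB9464 TCM + R788 on the one hand, and NBT3L TCM and NBT3L TCM + R788 on the other. All cells were wild type for Syk, so that the groups with R788 differed from the others by treatment and not by genotype. The methods describe NB9464 TCM as collected in DMEM without serum, whereas the sources used here do not give the vehicle of R788, the preparation of NBT3L TCM or the medium of cells without TCM. Base medium and serum may therefore differ between TCM and NS, and cannot be told apart from what the tumor cells added. The labels do not say whether the 2 libraries of a group came from separate cultures or mice, and p-values measure only the spread between these libraries.

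C-type lectin receptors are membrane proteins by which macrophages sense fungal and mycobacterial glycans and glycolipids and some molecules released by damaged cells. Dectin-1 carries its own tyrosine-based motif in the cytoplasmic tail, Dectin-2, Mincle and MCL signal through the Fc receptor gamma chain, and MDL-1 signals through DAP12. In each case the phosphorylated motif recruits Syk, which acts through CARD9, BCL10 and MALT1 on NF-kB and on the transcription of cytokines and chemokines.

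The libraries held between 44977847 and 56449685 counts over genes. The 6 macrophage markers Adgre1, Csf1r, Cd68, Itgam, Mertk and Fcgr1 were detected in every library, and their summed level lay between 6154 and 9034 TPM (transcript abundance scaled to a fixed sum per library, computed from the counts and the gene lengths of the table). Single macrophage markers moved in different directions. Adgre1 was at 1502 and 1394 TPM in NS and at 5904 and 5892 in NBT3L TCM + R788. Cd68 went from 3008 and 2971 TPM to 1613 and 1578 between the same groups. Fcgr1 was at 345 and 338 TPM in NS and at 77.8 and 75.8 in R788. Markers of lymphocytes, of dendritic cells and of neuroblastoma cells summed to at most 1.32, 3.22 and 0.995 TPM. The 5 stromal markers summed to 10.2 to 12.9 TPM in NS and 21 to 25.1 in R788. They summed to 14.1 to 16.2 TPM with NB9464 TCM and 20.3 to 22.6 with R788 added, and to 14.7 to 15.6 with NBT3L TCM and 25.2 to 26.1 with R788 added, so that the list moved with R788 in each medium. Of these, Pecam1, was at 0.429 and 0.382 TPM in NS and between 3.26 and 7.05 TPM in the 8 libraries with TCM. The part of these markers in the receptor results was not tested. One of the 2 R788 libraries, SJ8, stood apart, with 16149 genes at 1 count or more against 17275 to 18343 in the other 11 libraries. Values without SJ8 are given for the called differences of the 5 receptor genes in the comparisons that rest on it. For the other gene lists, values without SJ8 are not given.

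All 5 genes lie on mouse chromosome 6 (mm10). Clec4n spans chr6:123229843-123247021 on the plus strand, Clec4d spans chr6:123262111-123275265 on the plus strand, and Clec4e spans chr6:123281789-123289870 on the minus strand. These 3 genes fall within 60028 bases, with 15089 bases between Clec4n and Clec4d and 6523 bases between Clec4d and Clec4e. Clec7a lies at chr6:129461591-129472779 on the minus strand, and Clec5a at chr6:40574894-40585821 on the minus strand. The annotation used for the table gives Clec7a the type polymorphic pseudogene, whereas the RefSeq gene table lists it as protein coding. No exon of the 5 genes overlapped an exon of another gene in the annotation. The raw counts per library were 264 to 759 for Clec7a, 2782 to 22254 for Clec4n, 10388 to 121114 for Clec4e, 30837 to 66591 for Clec4d and 3294 to 5640 for Clec5a, so that Clec7a was measured with the least depth.

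RefSeq promoter windows (GRCm38.p6) were found for 4 of the 5 genes and not for Clec4n. Shown are the 250 bases before the start of Clec4e and of its neighbor Clec4d, which rose with TCM, and of the distant Clec7a, whose level followed another order. Each is written on the strand of its gene, 5′ to 3′, and ends at the last base before the annotated start. Capitals mark the PU.1 core GAGGAA on either strand (TTCCTC on the opposite one) and the C/EBP motif TTGCNNAA on either strand. PU.1 and C/EBP proteins are transcription factors of the myeloid lineage.
Clec4e, chr6:123289872-123290121, minus strand: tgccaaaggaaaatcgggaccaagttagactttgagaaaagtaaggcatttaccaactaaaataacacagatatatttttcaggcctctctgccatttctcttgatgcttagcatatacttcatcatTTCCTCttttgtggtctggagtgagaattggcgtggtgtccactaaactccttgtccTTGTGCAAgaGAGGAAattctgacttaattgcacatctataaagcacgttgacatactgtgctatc
Clec4d, chr6:123261857-123262106, plus strand: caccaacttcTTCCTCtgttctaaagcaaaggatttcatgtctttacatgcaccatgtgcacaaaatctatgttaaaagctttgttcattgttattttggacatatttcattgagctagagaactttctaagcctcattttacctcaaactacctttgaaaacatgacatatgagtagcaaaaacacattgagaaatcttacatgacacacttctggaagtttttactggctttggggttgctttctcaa
Clec7a, chr6:129472780-129473029, minus strand: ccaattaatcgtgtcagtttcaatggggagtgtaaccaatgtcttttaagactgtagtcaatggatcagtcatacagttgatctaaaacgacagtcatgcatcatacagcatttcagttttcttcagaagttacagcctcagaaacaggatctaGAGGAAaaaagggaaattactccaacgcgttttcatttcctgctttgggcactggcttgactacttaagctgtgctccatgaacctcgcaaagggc
The Clec4e window held both motifs next to each other, the C/EBP motif from position -66 to -59 and the PU.1 core from -56 to -51, counted back from -1 at the base before the start. It held a further PU.1 core on the opposite strand from -123 to -118. The PU.1 core stood at -96 to -91 in Clec7a, at -240 to -235 in Clec4d on the opposite strand, and in Clec5a at -81 to -76 and at -55 to -50, both on the opposite strand. Of 27025 RefSeq promoter windows of the same length, 23.1% held the PU.1 core and 9.55% the C/EBP motif. The AP-1 motif TGANTCA (in 6.87% of all windows) and the STAT motif TTCNNNGAA (in 7.18%) had no match in the 4 windows. These matches describe letters in the windows, and no binding was measured.

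Per gene length, Clec4d was the most abundant of the 5 receptor genes in every group, and Clec4e and Clec4n took larger shares of the sum with TCM. This ranking depends on the gene lengths used, 4965 bases for Clec4e and 1599 for Clec4d. By normalized counts, not divided by length, Clec4e lay above Clec4d in every group with TCM, as at 124843 against 73636 in NBT3L TCM. It lay below Clec4d in NS, at 9831 against 29949, and in R788. In NS the 5 genes summed to 1508 ± 30.1 TPM (SD, n = 2), of which Clec4d made up 78.8% and 79.3% in the 2 libraries. Clec4e stood at 126 ± 1.43 TPM, Clec4n at 119 ± 0.732 TPM, Clec5a at 57.9 ± 2.22 TPM and Clec7a at 12.9 ± 0.625 TPM. With NB9464 TCM the sum reached 3298 ± 45.2 TPM, and with NBT3L TCM 4344 ± 32.4 TPM. Clec4e then reached 837 ± 55.2 and 1220 ± 28.8 TPM, and Clec4d made up only 51.6% to 54.0% of the sum in NB9464 TCM and 50.6% to 52.3% in NBT3L TCM. In the R788 group the sum was 2098 ± 167 TPM, with 74.0% and 75.2% from Clec4d. With R788 the sum was 3158 ± 82.5 TPM in NB9464 TCM and 3752 ± 7.58 TPM in NBT3L TCM. Clec4e made up 32.0% to 32.8% of it in NB9464 TCM + R788, against 24.4% to 26.3% in NB9464 TCM.

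**Figure D1:**
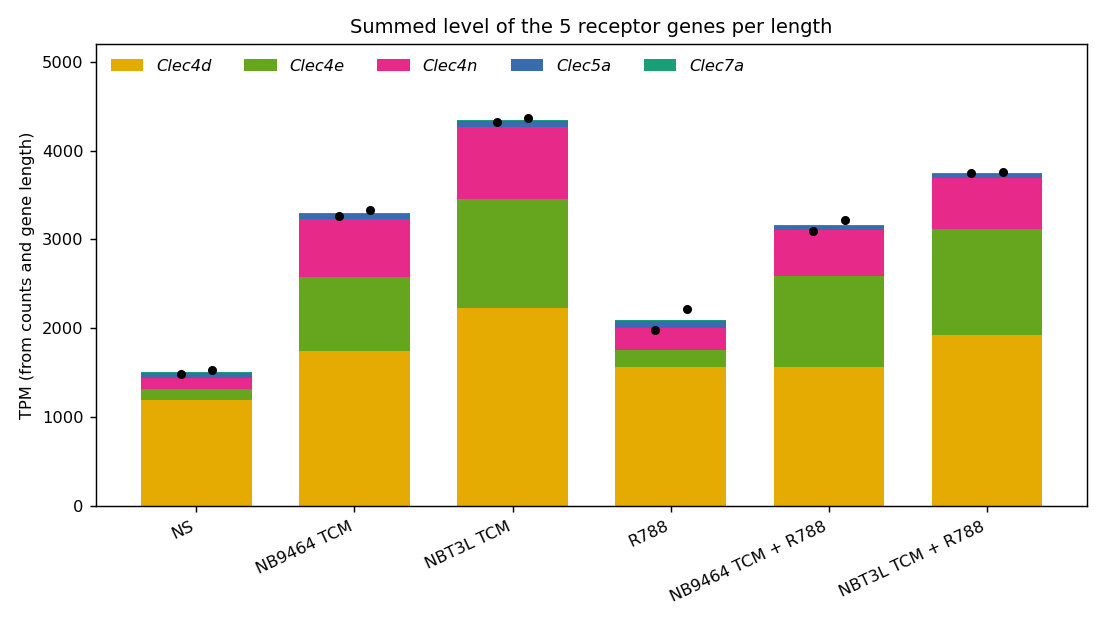
Summed level of the 5 receptor genes in TPM (vertical axis) for the 6 groups (horizontal axis). Stacked bars are the mean of 2 libraries per gene and black points are the sum in each library. The sum is 1508 TPM in NS and 4344 TPM in NBT3L TCM, and the Clec4e and Clec4n segments widen in all 4 groups with TCM.

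The first comparison asked which receptor genes differed in BMDMs given NB9464 TCM. Of the 5 genes, 4 were higher and 0 lower in NB9464 TCM than in NS, and Clec4e and Clec4n changed most. Among all genes tested, 34.1% were called, 17.2% higher and 16.9% lower. With NBT3L TCM all 5 were higher and 0 lower, where 35.3% of all genes were called, 18.0% higher and 17.3% lower. The median log2 fold change of the 5 was 0.80 with NB9464 TCM and 1.30 with NBT3L TCM, against 0.02 and 0.00 over all genes tested. A gene was called when the p-value of the DESeq2 Wald test, adjusted over all genes tested by the Benjamini-Hochberg method, was under 0.05. Both comparisons share the NS libraries. Scaling by total counts in place of DESeq2 size factors shifted the median of all genes to -0.10 with NB9464 TCM and to -0.23 with NBT3L TCM, and moved the share of higher genes among all called from 50.5% to 35.4% and from 51.1% to 26.8%.

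Among the receptors coupled to the Fc receptor gamma chain, Clec4e showed the largest change. Its DESeq2-normalized counts were 9756 and 9905 in NS. With NB9464 TCM they were 79396 and 76138, and with NBT3L TCM 122690 and 126997. The 3 groups did not overlap, and every TCM library lay far above both NS libraries. The increase was 7.91-fold with NB9464 TCM (log2 fold change 2.98, SE 0.06) and 12.7-fold with NBT3L TCM (3.67, SE 0.06), with adjusted p-values too small for the software to represent. In bulk RNA a change in the share of cells that express a gene cannot be told apart from a change in RNA per cell.

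Clec4n followed the same order of these 3 groups. Its normalized counts were 2613 and 2672 in NS. With NB9464 TCM they were 17145 and 17393, and with NBT3L TCM 23700 and 24081, again without overlap. Levels rose 6.54-fold with NB9464 TCM (log2 fold change 2.71, SE 0.07) and 9.04-fold with NBT3L TCM (3.18, SE 0.07), also with adjusted p-values too small to represent.

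Clec4d, the gene between these 2 on the chromosome, was already abundant in NS and rose less. It was measured at 28962 and 30937 normalized counts in NS, at 50195 and 54231 with NB9464 TCM, and at 75216 and 72057 with NBT3L TCM. No library of one group fell within another. The increase was 1.74-fold with NB9464 TCM (log2 fold change 0.80, SE 0.07, DESeq2 adjusted p = 4.92e-31) and 2.46-fold with NBT3L TCM (1.30, SE 0.07, DESeq2 adjusted p = 2.61e-80).

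Clec7a, the receptor with its own signaling motif, differed from NS with NBT3L TCM, and its difference with NB9464 TCM did not pass the test. Its normalized counts were 507 and 560 in NS, 451 and 438 with NB9464 TCM, and 939 and 780 with NBT3L TCM. The NBT3L TCM libraries lay above the other 4, and both NB9464 TCM libraries lay below NS. Levels were 1.61-fold higher with NBT3L TCM (log2 fold change 0.69, SE 0.19, DESeq2 adjusted p = 0.00144), and this call was lost without library SJ5 (log2 fold change 0.55, DESeq2 adjusted p = 0.0834). The NB9464 TCM value was -0.26 on the log2 scale with a 95% interval from -0.64 to 0.12 (DESeq2 adjusted p = 0.328).

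Clec5a, the DAP12-coupled receptor, changed least among the genes called in both media. Its normalized counts were 3343 and 3640 in NS, 4422 and 4175 with NB9464 TCM, and 4489 and 4693 with NBT3L TCM. Both TCM groups lay above NS and did not overlap each other. The log2 fold change was 0.30 (SE 0.08, DESeq2 adjusted p = 0.000565) with NB9464 TCM and 0.40 (SE 0.08, DESeq2 adjusted p = 2.62e-06) with NBT3L TCM, but with total-count scaling it was 0.17 and 0.16 and neither was called (DESeq2 adjusted p = 0.0771 and 0.0867). The call with NB9464 TCM was also lost without library SJ1 (log2 fold change 0.24, DESeq2 adjusted p = 0.0521). In TPM, Clec5a stood at 57.9 ± 2.22 in NS (SD, n = 2), at 59.8 ± 4.60 with NB9464 TCM and at 58.0 ± 1.78 with NBT3L TCM, so the groups overlapped on that scale.

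**Figure D2:**
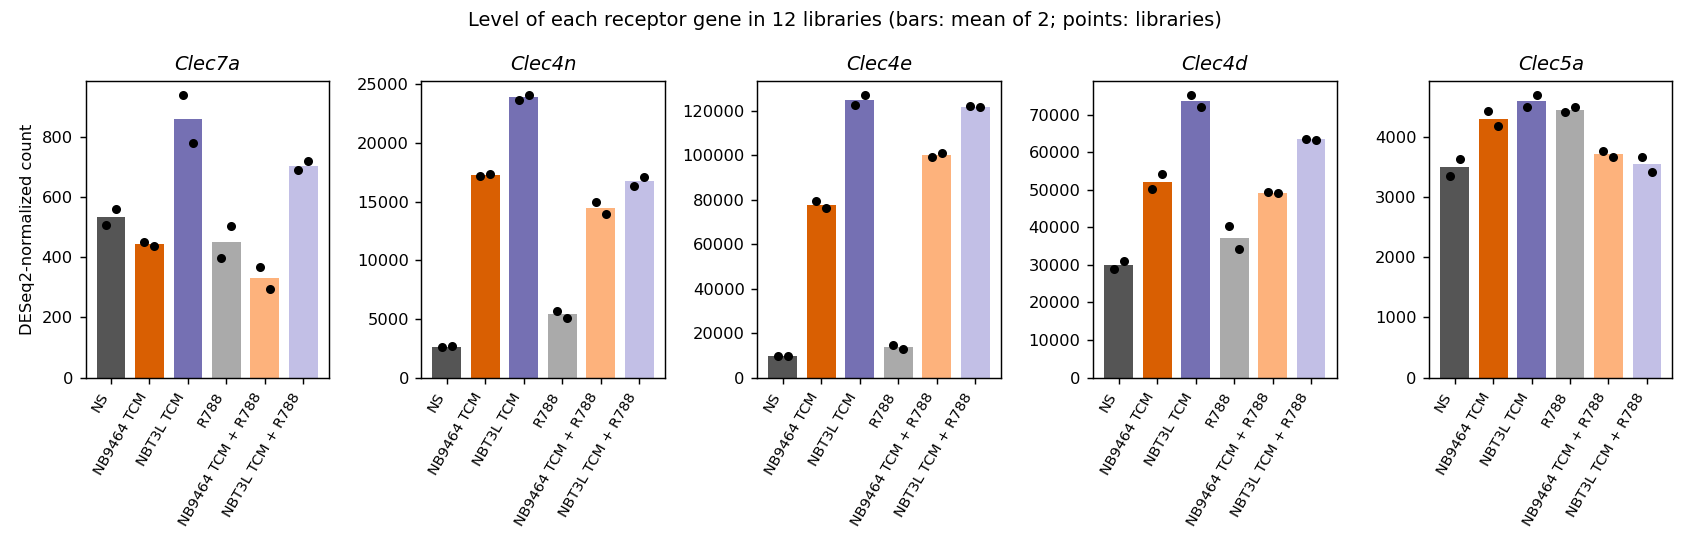
DESeq2-normalized counts (vertical axes, from 0) of the 5 receptor genes in the 6 groups (horizontal axes). Bars are means and points are the 2 libraries. Clec4n, Clec4e and Clec4d are lowest in NS and highest in NBT3L TCM, whereas Clec7a is lowest in NB9464 TCM + R788 and Clec5a moves within a narrow range.

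Markers of neutrophils moved with the media, in both directions. All 8 markers of that list together summed to 447 to 473 TPM in NS, 720 to 779 with NB9464 TCM, 828 to 833 with NBT3L TCM, 353 to 483 with R788, 615 to 635 in NB9464 TCM + R788 and 652 to 668 in NBT3L TCM + R788. Nearly all of it came from S100a8, S100a9 and Csf3r, which monocytes also express. S100a8 went from 108 and 124 TPM in NS to 479 and 451 with NB9464 TCM and 563 and 552 with NBT3L TCM, and Csf3r from 33.1 and 24.5 to 79.2 and 68.2 and to 89.9 and 96.0. S100a9 took the opposite course, from 293 and 312 TPM in NS to 220 and 200 with NB9464 TCM and 179 and 180 with NBT3L TCM. Ly6g, the defining marker of mouse neutrophils, reached at most 0.253 TPM in any library, and it was at 0 in both libraries of NB9464 TCM, of R788 and of NBT3L TCM + R788. Mpo, Elane, Retnlg and Cxcr2 reached at most 1.60, 4.57, 7.62 and 1.22 TPM in any library, and each was lower in the 4 libraries with TCM alone than in the 2 NS libraries. The part of these markers in the receptor results was not tested.

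The 2 conditioned media were then compared directly. Of the 5 genes, 4 were lower with NB9464 TCM than with NBT3L TCM and 0 higher, where 9.26% of all genes were called in either direction. The log2 differences were -0.95 for Clec7a (SE 0.19, DESeq2 adjusted p = 2.34e-05), -0.68 for Clec4e (SE 0.06, DESeq2 adjusted p = 4.24e-28), -0.50 for Clec4d (SE 0.07, DESeq2 adjusted p = 1.67e-11) and -0.47 for Clec4n (SE 0.06, DESeq2 adjusted p = 1.37e-11). Clec7a, the least expressed member, thus had the largest estimate, at 1.93-fold. Its 95% interval on the log2 scale, from -1.33 to -0.57, overlapped that of Clec4e, from -0.80 to -0.57. The genes were not tested against each other. For Clec5a the log2 difference was -0.10 with a 95% interval from -0.25 to 0.06 (DESeq2 adjusted p = 0.528), and it was 0.01 with total-count scaling. That scaling moved the share of higher genes among all called from 39.0% to 72.2%. The same 4 genes remained called in every alternative tried.

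R788 was next examined in cells without TCM. Here 4 of the 5 genes were higher and 0 lower in R788 than in NS, where 26.4% of all genes were called, 11.5% higher and 14.9% lower. The median log2 fold change of the 5 was 0.35, against 0.00 over all genes. Clec4n rose most. Its normalized counts were 5715 and 5098 in the R788 libraries against 2613 and 2672 in NS, a 2.05-fold increase (log2 fold change 1.03, SE 0.07, DESeq2 adjusted p = 1.22e-51). Both R788 libraries were above both NS libraries, and far below the libraries with TCM.

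The other called genes changed by smaller amounts in R788. Clec4e was at 14843 and 12803 normalized counts, higher by 0.49 on the log2 scale (SE 0.06, DESeq2 adjusted p = 1.74e-14). Clec5a was at 4405 and 4503, higher by 0.35 (SE 0.08, DESeq2 adjusted p = 5.98e-05), and Clec4d at 40268 and 34331, higher by 0.32 (SE 0.07, DESeq2 adjusted p = 2.93e-05). In each of these the R788 libraries lay above both NS libraries. Clec7a was at 396 and 505, with the higher library just under the lower NS library, and its log2 difference of -0.24 had a 95% interval from -0.62 to 0.14 (DESeq2 adjusted p = 0.407). Without SJ8 the log2 fold changes were 1.11 for Clec4n, 0.59 for Clec4e, 0.43 for Clec4d and 0.33 for Clec5a, and without SJ7 they were 0.95, 0.38, 0.20 and 0.37, all still called. Without SJ7 the value for Clec4d was thus less than it was with both libraries by over 1.5 times. Total-count scaling moved the share of higher genes among all called from 43.5% to 55.4%.

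With TCM present, the R788 differences were negative for Clec4n, Clec4d and Clec5a in both media, where they had been positive without TCM. Clec7a was lower with R788 by its mean in all 3 media without passing the test in any, and Clec4e kept its direction in NB9464 TCM. In NB9464 TCM, R788 went with 1 receptor gene higher and 2 lower, where 14.3% of all genes were called, 5.64% higher and 8.68% lower. In NBT3L TCM, 0 were higher and 3 lower, where 12.6% were called, 5.34% higher and 7.25% lower. The median log2 fold change of the 5 was -0.21 and -0.28 in these media, against 0.00 in both over all genes.

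Clec4n, which had risen with R788 alone, was lower with R788 in both media. Its normalized counts were 14972 and 13917 in NB9464 TCM + R788 and 16367 and 17099 in NBT3L TCM + R788, below each library of the matching TCM group. The log2 fold change was -0.26 in NB9464 TCM (SE 0.06, DESeq2 adjusted p = 0.000782) and -0.51 in NBT3L TCM (SE 0.06, DESeq2 adjusted p = 4.15e-14). The first was not called without library SJ10 (log2 fold change -0.21, DESeq2 adjusted p = 0.0743).

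Clec4e differed from its neighbors in the presence of R788. It was at 99341 and 100796 normalized counts in NB9464 TCM + R788, above both NB9464 TCM libraries, and the log2 fold change was 0.36 (SE 0.06, DESeq2 adjusted p = 3.75e-08). In NBT3L TCM + R788 it was at 122073 and 121697, close to NBT3L TCM without R788, and the log2 difference of -0.03 had a 95% interval from -0.15 to 0.08 (DESeq2 adjusted p = 0.796).

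Clec4d was at 49341 and 49039 normalized counts in NB9464 TCM + R788 and at 63669 and 63335 in NBT3L TCM + R788. Each pair lay below both libraries of the matching TCM group. The log2 difference in NB9464 TCM was -0.09 with a 95% interval from -0.22 to 0.05 (DESeq2 adjusted p = 0.48). In NBT3L TCM it was -0.21 (SE 0.07, DESeq2 adjusted p = 0.0137), which edgeR's quasi-likelihood test did not call (adjusted p = 0.0614) and which was lost without any 1 of libraries SJ5, SJ6, SJ11 and SJ12 (log2 fold change -0.18, -0.24, -0.22 and -0.21).

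Clec5a was at 3765 and 3659 normalized counts in NB9464 TCM + R788 and at 3658 and 3424 in NBT3L TCM + R788, below the matching TCM libraries and near NS. The log2 fold change was -0.37 in NBT3L TCM (SE 0.08, DESeq2 adjusted p = 3.55e-05). In NB9464 TCM it was -0.21 (SE 0.08, DESeq2 adjusted p = 0.0439), which edgeR's quasi-likelihood test did not call (adjusted p = 0.0745). Clec7a was at 367 and 293 in NB9464 TCM + R788 and at 691 and 719 in NBT3L TCM + R788, below each library of the matching TCM group. Its log2 differences were -0.43 with a 95% interval from -0.82 to -0.04 (DESeq2 adjusted p = 0.139) and -0.28 with an interval from -0.66 to 0.09 (DESeq2 adjusted p = 0.371), neither called.

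**Figure D3:**
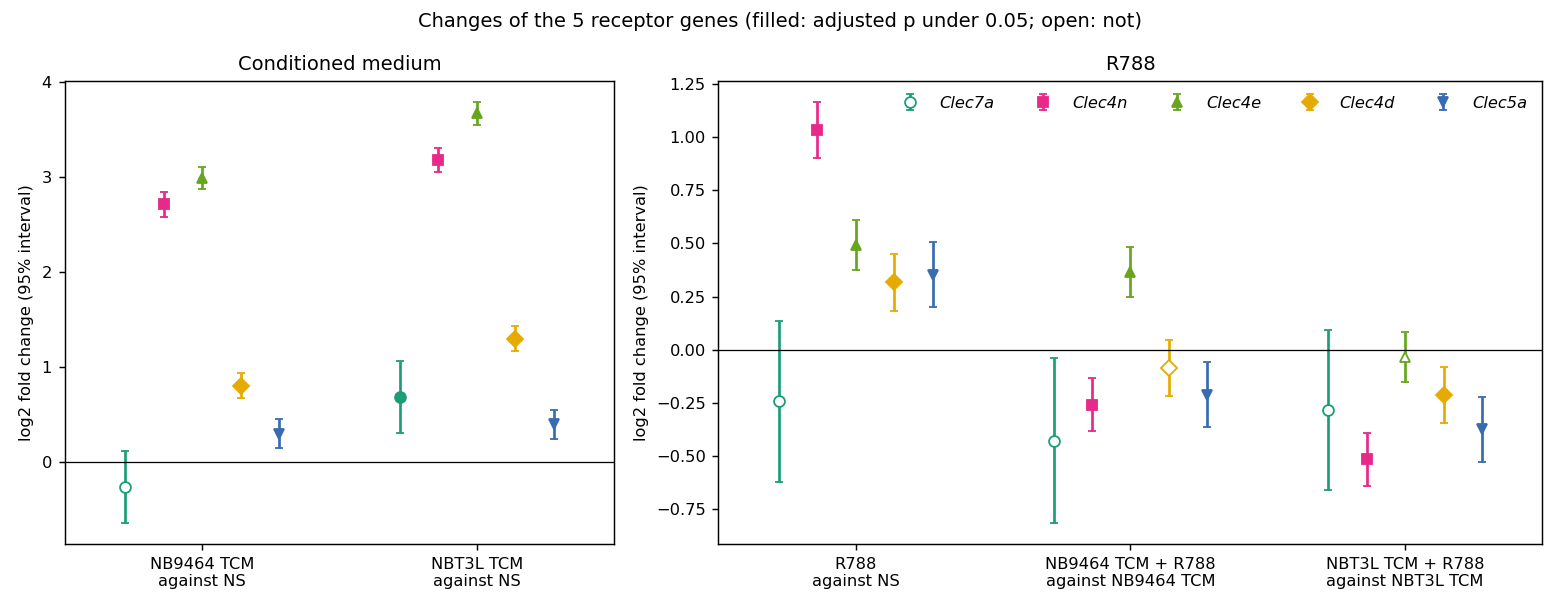
Log2 fold changes (vertical axes, with 95% intervals) of the 5 receptor genes for TCM against NS (left) and for R788 in each medium (right, on a finer scale). Filled symbols passed the DESeq2 test and open symbols did not. Clec4n stands at 1.03 for R788 without TCM and at -0.26 and -0.51 with NB9464 TCM and NBT3L TCM.

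Whether the R788 difference depended on the medium was tested as an interaction, the log2 fold change with R788 in a TCM minus that without TCM. With NB9464 TCM, 3 of the 5 genes had a negative interaction and 0 a positive one, where 12.4% of all genes were called and 6.28% were negative. The values were -1.29 for Clec4n (SE 0.09, DESeq2 adjusted p = 1.93e-41), -0.56 for Clec5a (SE 0.11, DESeq2 adjusted p = 1.02e-05) and -0.40 for Clec4d (SE 0.10, DESeq2 adjusted p = 0.000498). With NBT3L TCM, 4 were negative and 0 positive, where 10% of all genes were called and 4.91% were negative. They were Clec4n at -1.55 (SE 0.09, DESeq2 adjusted p = 8.07e-60), Clec5a at -0.73 (SE 0.11, DESeq2 adjusted p = 3.24e-09), Clec4d at -0.53 (SE 0.10, DESeq2 adjusted p = 1.33e-06) and Clec4e at -0.53 (SE 0.08, DESeq2 adjusted p = 3.64e-08). Both interactions share the NS and R788 libraries.

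Without SJ8 the values with NB9464 TCM were -1.37 for Clec4n, -0.55 for Clec5a and -0.51 for Clec4d. Without SJ7 they were -1.21, -0.58 and -0.28. With NBT3L TCM they were -1.63 for Clec4n, -0.71 for Clec5a, -0.64 for Clec4d and -0.63 for Clec4e without SJ8. Without SJ7 these were -1.46, -0.74, -0.41 and -0.42. All 7 interactions stayed negative in these fits. Without SJ8 that of Clec4e with NB9464 TCM, -0.13 in all libraries with a 95% interval from -0.29 to 0.04 (DESeq2 adjusted p = 0.363), came to -0.23 and was called (DESeq2 adjusted p = 0.000623), whereas without SJ7 it was -0.02 and not called (DESeq2 adjusted p = 0.878). The interactions of Clec7a were -0.19 with NB9464 TCM and -0.04 with NBT3L TCM, with 95% intervals from -0.73 to 0.36 and from -0.58 to 0.49. Total-count scaling moved the share of positive values among all called from 49.3% to 30.9% with NB9464 TCM and from 51.1% to 40.2% with NBT3L TCM.

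Between the 2 media, the R788 difference was called for 1 receptor gene, where 0.7% of all genes were called. It was Clec4e, whose log2 fold change with R788 was 0.40 higher in NB9464 TCM than in NBT3L TCM (SE 0.08, DESeq2 adjusted p = 0.00104). The call was lost in edgeR's quasi-likelihood test (adjusted p = 0.0726) and without library SJ6 (log2 value 0.37, DESeq2 adjusted p = 0.0665). Total-count scaling moved the share of positive values among all called from 39.5% to 25.8%.

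Averaged over the 3 media, R788 left 1 gene higher and 1 lower, where 29.6% of all genes were called. Of the 16281 genes tested, 2184 were higher and 2632 lower. Clec4e was higher by 0.27 on the log2 scale (SE 0.03, DESeq2 adjusted p = 5.31e-14). Clec7a was lower, at -0.32 on that scale (SE 0.11, DESeq2 adjusted p = 0.018), and lower in all 3 media. Without SJ8 these values were 0.31 for Clec4e and -0.38 for Clec7a, both called. Clec4n stood at 0.09 with a 95% interval from 0.01 to 0.16 (DESeq2 adjusted p = 0.0631), and was called higher without SJ8 (0.11, DESeq2 adjusted p = 0.00153), without SJ10 (0.10, DESeq2 adjusted p = 0.0436), with total-count scaling (0.11, DESeq2 adjusted p = 0.0107) and among genes with a mean of 50 or more counts (0.09, DESeq2 adjusted p = 0.0488). Clec4d and Clec5a, at 0.01 and -0.08, had intervals from -0.07 to 0.08 and from -0.17 to 0.01 (DESeq2 adjusted p = 0.944 and 0.196). Leaving out 1 library at a time ended the Clec7a call for 6 of the 12 libraries, SJ2, SJ3, SJ5, SJ7, SJ10 and SJ11, with values from -0.31 to -0.26.

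Under R788, 4 of the 5 genes were lower with NB9464 TCM than with NBT3L TCM and 0 higher, where 9.53% of all genes were called. The log2 differences were -1.09 for Clec7a (SE 0.20, DESeq2 adjusted p = 1.16e-06), -0.37 for Clec4d (SE 0.07, DESeq2 adjusted p = 2.22e-06), -0.28 for Clec4e (SE 0.06, DESeq2 adjusted p = 5.83e-05) and -0.21 for Clec4n (SE 0.06, DESeq2 adjusted p = 0.0127). The Clec4n call was lost with total-count scaling (-0.14, DESeq2 adjusted p = 0.129) and in edgeR's quasi-likelihood test (adjusted p = 0.0632), and without library SJ10, SJ11 or SJ12. Clec5a stood at 0.07 with a 95% interval from -0.09 to 0.22 (DESeq2 adjusted p = 0.752). Total-count scaling moved the share of higher genes among all called from 36.6% to 58.4%.

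Ordered by mean normalized count, Clec4n and Clec4e each had 6 groups whose neighbors did not overlap. The share of all genes with such an order was not computed, so the orders below only describe each gene. Clec4n ran from 2642 ± 41.9 (SD, n = 2) in NS through R788, NB9464 TCM + R788, NBT3L TCM + R788 and NB9464 TCM to 23890 ± 269 in NBT3L TCM. Clec4e ran from 9831 ± 105 in NS through R788, NB9464 TCM, NB9464 TCM + R788 and NBT3L TCM + R788 to 124843 ± 3045 in NBT3L TCM. Clec4d, likewise without overlap between neighbors, ran from 29949 ± 1397 in NS to 73636 ± 2233 in NBT3L TCM. For Clec7a the range was 330 ± 52.2 in NB9464 TCM + R788 to 860 ± 113 in NBT3L TCM, and NB9464 TCM and R788 overlapped. For Clec5a it was 3491 ± 210 in NS to 4591 ± 144 in NBT3L TCM, with overlap between NS and NBT3L TCM + R788 and among NB9464 TCM, R788 and NBT3L TCM in adjacent pairs.

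Over the 12 libraries, Pearson's r of log2(normalized count + 1) was 0.97 between Clec4n and Clec4e, 0.95 between Clec4n and Clec4d, and 0.93 between Clec4e and Clec4d, and at most 0.49 in the pairs with Clec7a or Clec5a. The libraries fall into groups by medium, so that these values describe shared group differences. For likeness, 10710 genes averaging 100 or more normalized counts were compared. Those most like Clec4e were Trem3, Sod2 and Rnf149 (r from 0.994 to 0.997). Those most like Clec4n were Lrrc8d, Adh7 and Marcksl1 (0.991 to 0.995), and those most like Clec4d were Plod3, Gstm2 and Il4ra (0.976 to 0.981). The closest to Clec7a were Cd300ld3, Cd300ld5 and Selenoh (0.904 to 0.925), and to Clec5a Pik3ca, Cd80 and Tnfrsf26 (0.846 to 0.888).

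The genes that link these receptors to the nucleus were described from lists. Of 20 adaptor and signaling genes, 11 were higher and 3 lower in NB9464 TCM than in NS, with a median log2 fold change of 0.37. Over all genes the shares were 17.2% higher and 16.9% lower, so that the 3 lower genes were near the background. Syk, the kinase itself, was at 14987 ± 623 normalized counts in NS and 33935 ± 428 in NB9464 TCM (SD, n = 2), a log2 fold change of 1.18 (DESeq2 adjusted p = 5.26e-116). Vav1, which encodes an exchange factor downstream of Syk, rose by 0.85, while Cblb, which encodes a ubiquitin ligase that restrains this signaling, fell by 1.03 on the log2 scale. The adaptor genes themselves, chosen outside the naming rule after their values were seen, differed. Fcer1g, the Fc receptor gamma chain, was higher by 0.57 (DESeq2 adjusted p = 0.000377), and Tyrobp, which encodes DAP12, stood at -0.05 with a 95% interval from -0.35 to 0.24 (DESeq2 adjusted p = 0.842). Averaged over media, R788 went with 8 of the 20 higher and 2 lower, among them Fgr at 0.55, Card9 at 0.40 and Cblb at -0.32. Of the 16281 genes tested, 29.6% were called, 2184 of them higher and 2632 lower. Fgr was called higher with R788 in each medium, but the other 2 averages cover unequal differences. Card9 was called at 0.82 for cells lacking TCM and at 0.30 under NBT3L TCM. Under NB9464 TCM it was 0.09 and not called (DESeq2 adjusted p = 0.634). Cblb was called only for cells lacking TCM, at -0.66. Its values were -0.04 under NB9464 TCM and -0.27 under NBT3L TCM (DESeq2 adjusted p = 0.896 and 0.114).

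All 5 genes of proteins named as endogenous ligands of these receptors were called in NB9464 TCM against NS, 1 higher and 4 lower, with a median log2 fold change of -0.32, where 34.1% of all genes were called. Anxa1, the annexin A1 gene, went from 52806 ± 1524 to 19439 ± 508 normalized counts (log2 fold change -1.44, DESeq2 adjusted p = 9.3e-175). Vim, the vimentin gene, fell by 0.92 and Lgals9, the galectin-9 gene, by 0.32, whereas Anxa5, the annexin A5 gene, rose by 0.35. Averaged over media, R788 left 4 of the 5 lower and 0 higher, with Lgals9 at -0.70, Anxa1 at -0.61 and Vim at -0.47. Again 29.6% of the 16281 genes tested were called, 2184 of them higher and 2632 lower.

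Of 15 related myeloid C-type lectin genes, 12 were tested, and 4 were higher and 3 lower in NB9464 TCM, with a median log2 fold change of 0.03, where 17.2% of all genes were higher and 16.9% lower. Mrc1, the mannose receptor gene, fell from 27165 ± 1550 to 2664 ± 209 normalized counts (log2 fold change -3.35), and Clec10a, a galactose-type lectin gene, from 394 and 409 to 55.5 and 75.2 (log2 fold change -2.62, DESeq2 adjusted p = 2.48e-18). Clec4a2 and Clec4a1 rose by 1.33 and 1.31. Averaged over media, R788 left 4 higher and 3 lower, with Clec10a at 0.66, Clec2d at -0.58 and Mrc1 at -0.85. Here too 29.6% of the 16281 genes tested were called, 2184 of them higher and 2632 lower. The Mrc1 average joins unlike media. Without TCM its log2 difference was 0.12 with a 95% interval from -0.03 to 0.27 (DESeq2 adjusted p = 0.264), whereas it was -1.60 in NB9464 TCM and -1.08 in NBT3L TCM, both called.

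Of 15 cytokine, chemokine and early response genes known to follow stimulation of these receptors, 12 were tested. In NB9464 TCM 10 were higher and 1 lower, or 0 lower by edgeR's quasi-likelihood test, beside 17.2% and 16.9% of all genes. The median log2 fold change of the 12 was 2.97. Il12b, which encodes the p40 cytokine subunit, was at 0 and 5.64 normalized counts in NS and between 593 and 634 in NB9464 TCM. Il6 was at 0 and 3.79 in NS and between 259 and 327 in NB9464 TCM. The neutrophil chemokine gene Cxcl1 rose by 4.92 on the log2 scale and Il1b by 4.28. R788 left 0 of the 12 higher and 5 lower in NB9464 TCM, where 5.64% of all genes were higher and 8.68% lower. In NBT3L TCM it left 0 higher and 8 lower, or 6 lower by edgeR's quasi-likelihood test, where 5.34% of all genes were higher and 7.25% lower. The medians were -0.43 and -0.49. Without TCM, R788 left 1 higher and 5 lower, or 4 lower by edgeR's quasi-likelihood test. There 11.5% of all genes were higher and 14.9% lower. The early response gene Egr1 was at 141 ± 11.1 normalized counts in NS and 17.5 ± 11.2 in R788, and at 279 ± 11.6 in NB9464 TCM and 87.6 ± 0.154 with R788 added.

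**Figure D4:**
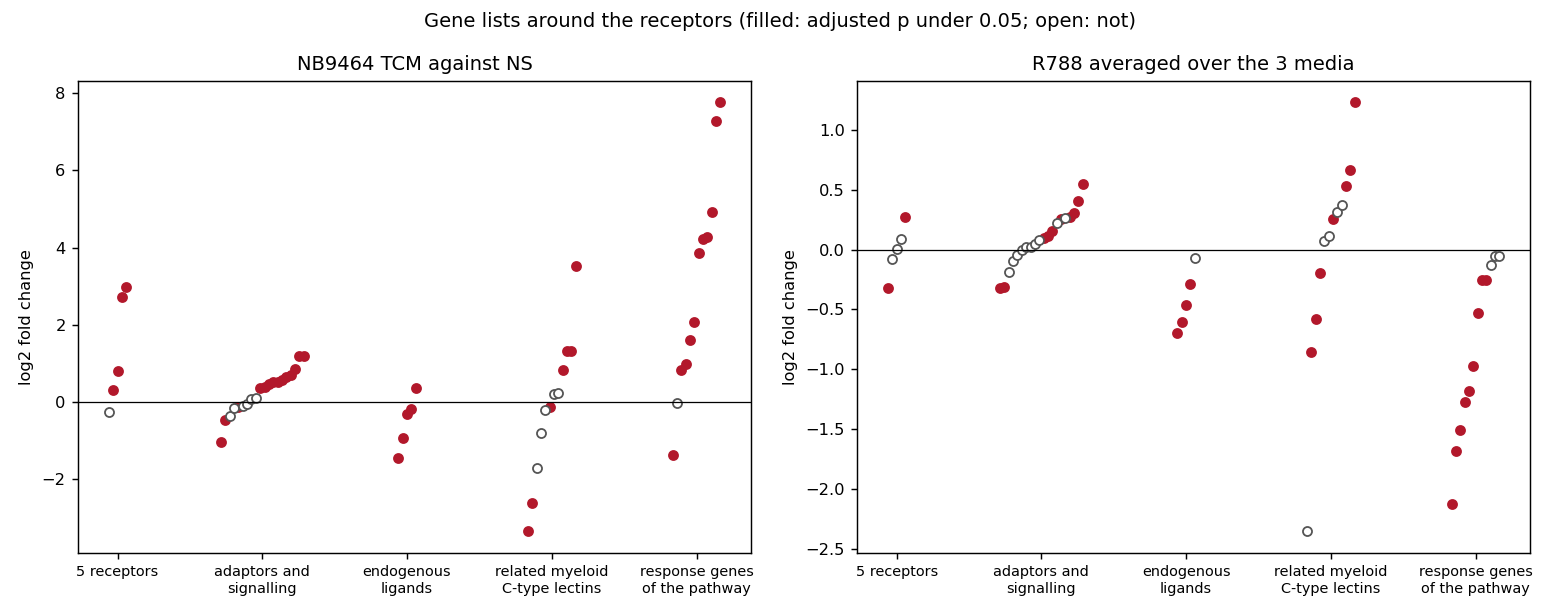
Log2 fold changes (vertical axes) of the 5 receptor genes and of 4 gene lists for NB9464 TCM against NS (left) and for R788 averaged over the 3 media (right). Each point is a gene, filled where the DESeq2 test called it. Response genes lie mostly above 0 with TCM, where the list's median is 2.97, and none of them is called higher with R788 averaged over the 3 media.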

How the data were processed

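Poly(A)-selected RNA of BMDMs was sequenced in 12 libraries, and group membership was taken from the labels. The authors deposited whole-number read counts per Ensembl gene beside a gene length. The submitters' processing notes name mm10, STAR 2.6.1d, Salmon 1.4.0, SAMtools 1.9, Picard 2.26 and MultiQC 1.11, and which program gave the counts, its use of strand and its handling of reads with several positions were not given in the sources used here. Among counts from 1 to 40, 65.2% to 67.9% per library were even, and halved counts were therefore also tried. The methods mention triplicates and single reads, whereas the labels give 2 libraries per group and paired reads.

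Symbols and positions came from GENCODE M21, which held 54165 of the 54232 gene IDs. A gene was tested if 2 or more libraries held 10 or more of its counts, which left 16281. The tool was DESeq2 1.42.0 in R 4.3.3, with 1 fit of 6 group means with unshrunken log2 fold changes, Wald tests and Benjamini-Hochberg adjustment over all genes tested. The code was checked on simulated counts. TPM were computed from the counts and gene lengths. No pairing or batch is given by the labels.

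The alternatives were edgeR 4.0.16 (quasi-likelihood test, TMM), TMM or total-count size factors in DESeq2, no filter or a mean of at least 50 counts, only the libraries compared, halved counts, and leaving out each library, where the lone sample left in a group is assumed to vary like the other groups. The members and lists were chosen with earlier results of these data known. All 5 members were named. From each list, up to 4 called genes averaging 100 or more normalized counts, those of largest change in NB9464 TCM against NS, and up to 3 for R788 averaged over media, could be named, with the 3 genes most correlated with each member. One gene that this rule would name is not reported here. Promoter windows came from RefSeq (GRCm38.p6).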

Additional observations from a re-analysis of the deposited data

Results flagged for a closer look

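The R788 difference depended on the medium for 4 of the 5 receptor genes by the DESeq2 test of the interaction itself. With NB9464 TCM, 3 of the 5 were called negative, where 6.28% of all genes were. With NBT3L TCM, 4 were called negative, where 4.91% of all genes were. Both interactions share the NS and R788 libraries and are not independent, and the counts are descriptive. For Clec4n the log2 interaction was -1.29 with NB9464 TCM and -1.55 with NBT3L TCM: R788 went with higher levels in both libraries without TCM and with lower levels in both libraries of each TCM. For Clec5a the interactions were -0.56 with NB9464 TCM and -0.73 with NBT3L TCM, and for Clec4d they were -0.40 and -0.53. For Clec4e the interaction with NBT3L TCM was -0.53, and the R788 difference was 0.40 higher in NB9464 TCM than in NBT3L TCM. All but the last of these were called under every alternative tried.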

How the results depend on the processing

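Of 55 log2 differences of the 5 receptor genes (11 comparisons each), 37 were called, and 28 of these kept their direction and their call under all 7 other settings and all 12 fits that left out 1 library. No called difference changed direction. Leaving out 1 library gave 1 to 3 called genes for R788 in NB9464 TCM, 1 to 3 for R788 averaged over media, and 0 to 2 for the R788 difference between media, where edgeR called 0 and a fit of only the libraries compared called 2. Differences that changed sign were not called in any fit. Total-count scaling gave 0.0086 for Clec5a between the media without R788. Leaving out 1 library gave -0.0337 to 0.0413 for Clec4d under R788 averaged over media, and for Clec7a -0.3589 to 0.0032 in the interaction with NB9464 TCM, -0.2075 to 0.1443 in that with NBT3L TCM, and -0.3141 to 0.0089 between media. The cause was not tested. Clec5a under R788 in NB9464 TCM lost its call in 13 of 19 alternatives. The interaction of Clec4n between media, 0.26 and not called, was called with only the libraries compared and without SJ7 or SJ8. No paired analysis was possible because the groups share no replicate numbers. With 2 libraries per group and 264 to 759 counts per library, Clec7a has the widest intervals.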
